A study of Mus musculus with 59 samples.

Results

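The core genes of the circadian clock were examined in RNA-seq counts from 5 brain regions of wildtype mice and of mice with an expanded Atxn1 allele. They are the 10 genes Arntl (also called Bmal1), Npas2, Nr1d1, Nr1d2, Per1, Per2, Per3, Cry1, Cry2, and Dbp, taken by symbol from the 54232 mouse genes of the count tables, and all 10 passed the filter on low counts in every region. Against WT, 4 of them were lower in hippocampus (3.39% of all genes), 7 in striatum (3.77%), and 6 in cortex (6.71%) of SCA1 mice, and none was higher. None was called in the cerebellum or the brainstem, where 5.22% and 0.538% of all genes were. In mice whose expanded allele also carries substitutions that disrupt binding to the repressor CIC, 2, 3, and 5 of them were lower in the same 3 forebrain regions (0.671%, 1.08%, and 4.76% of all genes). Per1 and Nr1d1 were called in all 3 forebrain regions of both mutants, but not under every setting. Their hippocampal calls were lost with the number series or the clock index of the mice as a covariate. The striatal Nr1d1 calls were lost with the clock index too. When pairs shared with the overlapping gene Thra were added, which can come from either gene, 5 of the 6 Nr1d1 calls were lost. Per1 changed by -0.65 and -0.85 on the log2 scale in the striatum of the 2 mutants and by -0.53 and -0.83 in the cortex. With all libraries kept the largest change was that of Dbp, by -1.02 in the striatum of SCA1 mice. It was -0.74 without the WT library highest in Dbp, which is smaller in size than that of striatal Per1 in the second mutant.

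The clock of a mammalian cell is a transcriptional feedback loop. BMAL1, encoded by Arntl, pairs with CLOCK or, in the forebrain above all, with NPAS2, and the pair switches on the Period and Cryptochrome genes from E-box sequences; PER and CRY proteins then return to the nucleus and silence the pair that made them. In a second loop the pair also switches on the REV-ERB repressors NR1D1 and NR1D2, which shut Arntl down through ROR elements, and the output factor DBP, which acts on D-boxes. Genes driven by E-boxes and D-boxes therefore tend to peak at another time of day than Arntl and Npas2. A mouse killed earlier or later in its day could therefore show the sets shifted in opposite directions and in all of its regions, though not every gene of a set need shift alike. Cry1 was placed with Arntl and Npas2 here, although the pair switches it on from E-boxes too. Per1 and Per2 also answer within minutes to neuronal activity and to glucocorticoids. The time of day at which tissue was taken is not given in the sources used here.

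The 59 libraries came from 12 C57BL/6 mice aged 10 weeks, 4 of each genotype, each giving 1 library from cortex, striatum, hippocampus, brainstem, and cerebellum, apart from 1 missing brainstem. WT mice are wildtype (WT-221, WT-220, WT-77, and WT-70, numbered as in the labels). SCA1 mice (SCA1-76, SCA1-75, SCA1-71, and SCA1-69) are Atxn1 154Q/2Q, with 1 Atxn1 allele carrying an expanded CAG repeat, the mutation of spinocerebellar ataxia type 1, and 1 normal mouse allele. 154Q-AXH mice (154Q-AXH-218, 154Q-AXH-217, 154Q-AXH-209, and 154Q-AXH-207) are Atxn1 154Q[V591A;S602D]/2Q, in which the expanded allele also carries the substitutions V591A and S602D that disrupt its binding to CIC. Both mutant alleles are knock-ins expressed from the Atxn1 locus itself, in every cell that uses the gene, and 154Q-AXH-217 is the mouse with no brainstem library. All SCA1 mice have numbers of a lower series and all 154Q-AXH mice of a higher one, with 2 WT mice in each, so series and mutant genotype can be told apart only through the WT mice. Each library held 28058400 to 112344000 counted read pairs, with at most 54719100 in the striatum and 46174800 in the cortex, and the lowest count of any member in any library was 242 (Npas2). Values of single libraries are given in the order of the mouse numbers, lowest first. Levels are in CPM, the counts of a gene divided by the TMM-scaled total of the library in units of 1e6 pairs.

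Some libraries stood apart from the rest. The hippocampal library of SCA1-76 held 353 CPM of the 5 brainstem markers, against 1.32 to 3.97 CPM in the other 11 hippocampal libraries, and both Xist (187 CPM) and the Y-linked Ddx3y (53.8 CPM). The cortical library of WT-221 held 470.0 CPM of Xist and 0.897 CPM of Ddx3y, against 0.411 to 5.92 CPM and 72.2 to 159 CPM in the other libraries of that mouse. SCA1-75 and 154Q-AXH-217 were high in Xist in all of their libraries, and no WT mouse was high in any but that cortical library. The cortical libraries of SCA1-76 and 154Q-AXH-207 have names that disagree with their labels, and the labels were followed. In the striatum, the summed level of 5 markers of striatal projection neurons ran from 293 to 2418 CPM, with WT-220 (2418 CPM) and 154Q-AXH-217 (1657 CPM) above all others, while 5 cortical markers were lowest in the same 2 libraries (206 and 193 CPM, against 282 to 556 CPM). Below, the libraries that stood apart are the hippocampal library of SCA1-76 and the cortical libraries of WT-221, SCA1-76, and 154Q-AXH-207. Calls within hippocampus and cortex and the main comparisons across regions were repeated without them. The striatal libraries of WT-220 and 154Q-AXH-217 were left out only in a repeat of the striatal fit. Values are given where a call or a range changed. Mice high in Xist were not left out as a set in these repeats, and the part of sex in the results was not tested.

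The promoters of 4 members are shown because they hold the motifs through which the loop is known to act. Start sites and sequence are those of RefSeq on GRCm38.p6, a window covers 250 bases before to 50 bases after a start, and 9 of the 10 members had at least 1 window, 11 in all. The windows were searched on both strands for the E-box CACGTG, its variant CACGTT, the D-box TTATGNAA, the ROR element core TAGGTNA, the cAMP response element TGACGTNA, and the CIC site TGAATGNA. In the Arntl window below, at the second of its start sites, the capitals mark 2 ROR cores, at bases -6 and +31 from the start. In the Per1 window they mark an E-box at -166 and a D-box at -24, in the Per3 window D-boxes at -205 and -158, and in the Cry1 window CACGTT read on the opposite strand (AACGTG) at -79 and an E-box at -60.
Arntl, chr7:113207261-113207560, plus strand: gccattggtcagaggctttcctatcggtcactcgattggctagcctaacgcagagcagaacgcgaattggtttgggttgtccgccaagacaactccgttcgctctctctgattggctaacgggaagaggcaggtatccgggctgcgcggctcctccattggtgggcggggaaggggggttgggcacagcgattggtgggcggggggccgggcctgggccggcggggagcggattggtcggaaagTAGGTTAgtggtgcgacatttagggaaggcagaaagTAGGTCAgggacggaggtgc
Per1, chr11:69098699-69098998, plus strand: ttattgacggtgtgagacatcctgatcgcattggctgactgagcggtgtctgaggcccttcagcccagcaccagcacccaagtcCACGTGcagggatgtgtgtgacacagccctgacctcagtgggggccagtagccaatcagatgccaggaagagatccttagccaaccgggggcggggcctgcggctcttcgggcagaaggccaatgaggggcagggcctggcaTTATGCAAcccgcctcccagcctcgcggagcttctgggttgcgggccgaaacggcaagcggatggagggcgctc
Per3, chr4:151044616-151044915, minus strand: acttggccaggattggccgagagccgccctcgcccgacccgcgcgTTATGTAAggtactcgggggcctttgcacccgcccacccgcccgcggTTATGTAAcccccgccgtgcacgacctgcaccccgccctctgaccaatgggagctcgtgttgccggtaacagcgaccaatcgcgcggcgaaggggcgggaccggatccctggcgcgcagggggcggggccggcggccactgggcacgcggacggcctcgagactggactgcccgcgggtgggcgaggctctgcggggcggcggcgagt
Cry1, chr10:85185005-85185304, minus strand: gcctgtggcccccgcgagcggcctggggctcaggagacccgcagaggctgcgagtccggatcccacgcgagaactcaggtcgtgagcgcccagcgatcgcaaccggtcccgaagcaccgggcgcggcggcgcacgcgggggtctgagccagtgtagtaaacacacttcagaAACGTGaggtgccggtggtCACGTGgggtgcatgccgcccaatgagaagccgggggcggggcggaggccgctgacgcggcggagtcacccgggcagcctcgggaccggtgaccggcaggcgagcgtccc
Of 32851 mouse promoter windows of the same length, 7.15% hold the E-box, 4.68% its variant, 3.38% the D-box, 8.29% the ROR core, 2.93% the cAMP element, and 3.82% the CIC site. The window at the other Arntl start holds 1 ROR core, and Nr1d1 and Cry2 hold the E-box variant at -28 and -166. The windows of Npas2, Nr1d2, and Dbp and the window at the other Per1 start hold none of the 6 motifs. No member window holds the letters searched for the CIC site or the cAMP element. A match is a string of letters in this window and says nothing of what binds there.

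In WT mice every member differed between regions, as did 91.6% of the 22200 genes tested (edgeR's quasi-likelihood F test, or 91.8% with the mouse as a block). Levels are called apart below where neighbours in the order differed at an adjusted p under 0.05. Npas2, the forebrain partner of BMAL1, had the widest range. It stood at 39.1 ± 0.618 CPM (SD, n = 4) in the striatum and 38.1 ± 1.28 CPM in the cortex, which were not apart, then at 22.5 ± 2.75 CPM in the hippocampus, 5.97 ± 0.365 CPM in the brainstem, and 3.896 ± 0.430 CPM in the cerebellum, 10.03-fold below the striatum. Arntl was highest in the cerebellum (39.5 ± 1.703 CPM), near 1 level in striatum, hippocampus, and cortex (30.3 to 33.3 CPM, no neighbours apart), and lowest in the brainstem (13.1 ± 0.830 CPM).

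Among the members that repress, some were highest in the forebrain and some in the cerebellum. Per1 (134 ± 11.3 CPM in the cortex and 126 ± 5.998 CPM in the striatum, against 38.9 ± 2.58 CPM in the brainstem), Nr1d1 (122 ± 8.58 CPM in the cortex, 46.8 ± 1.41 CPM in the brainstem), and Cry2 (151 ± 8.41 and 70.99 ± 0.882 CPM) were highest in the cortex and striatum, not apart for any of them, and lowest in the brainstem. For Nr1d1 the cerebellum (109 ± 7.29 CPM) was not apart from these either. Nr1d2 was highest in the cerebellum (304 ± 41.3 CPM), then in the brainstem (205 ± 8.96 CPM), with the 3 forebrain regions at 132 to 137 CPM and not apart. Cry1 was 60.02 ± 7.39 CPM in the cerebellum and 15.99 ± 1.11 CPM in the hippocampus, its lowest region, next to the brainstem (17.8 ± 0.730 CPM, not apart). Per3 was highest in the cerebellum (57.6 ± 9.62 CPM), ahead of the hippocampus (46.7 ± 7.24 CPM), with cortex, brainstem, and striatum below at 36.01 to 38.8 CPM and not apart. Per2 levels in cerebellum, striatum, cortex, and hippocampus (43.4 to 48.1 CPM) were not apart, and Per2 was lower in the brainstem (23.7 ± 2.92 CPM). Dbp ran from 119.8 ± 44.9 CPM in the striatum, where WT-220 alone stood at 186 CPM, through cortex and cerebellum to hippocampus and brainstem (35.9 ± 4.85 CPM), the last 2 not apart. On the scale of CPM per kb of exon, which allows genes to be compared, Nr1d2 was the most abundant member in the cerebellum (56.3 ± 7.63) and Npas2 the least (0.813 ± 0.0898), whereas in the cortex Nr1d1 led (39.6 ± 2.79) and Arntl and Per3 were lowest (4.03 ± 0.380 and 4.03 ± 0.237).

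**Figure D1:**
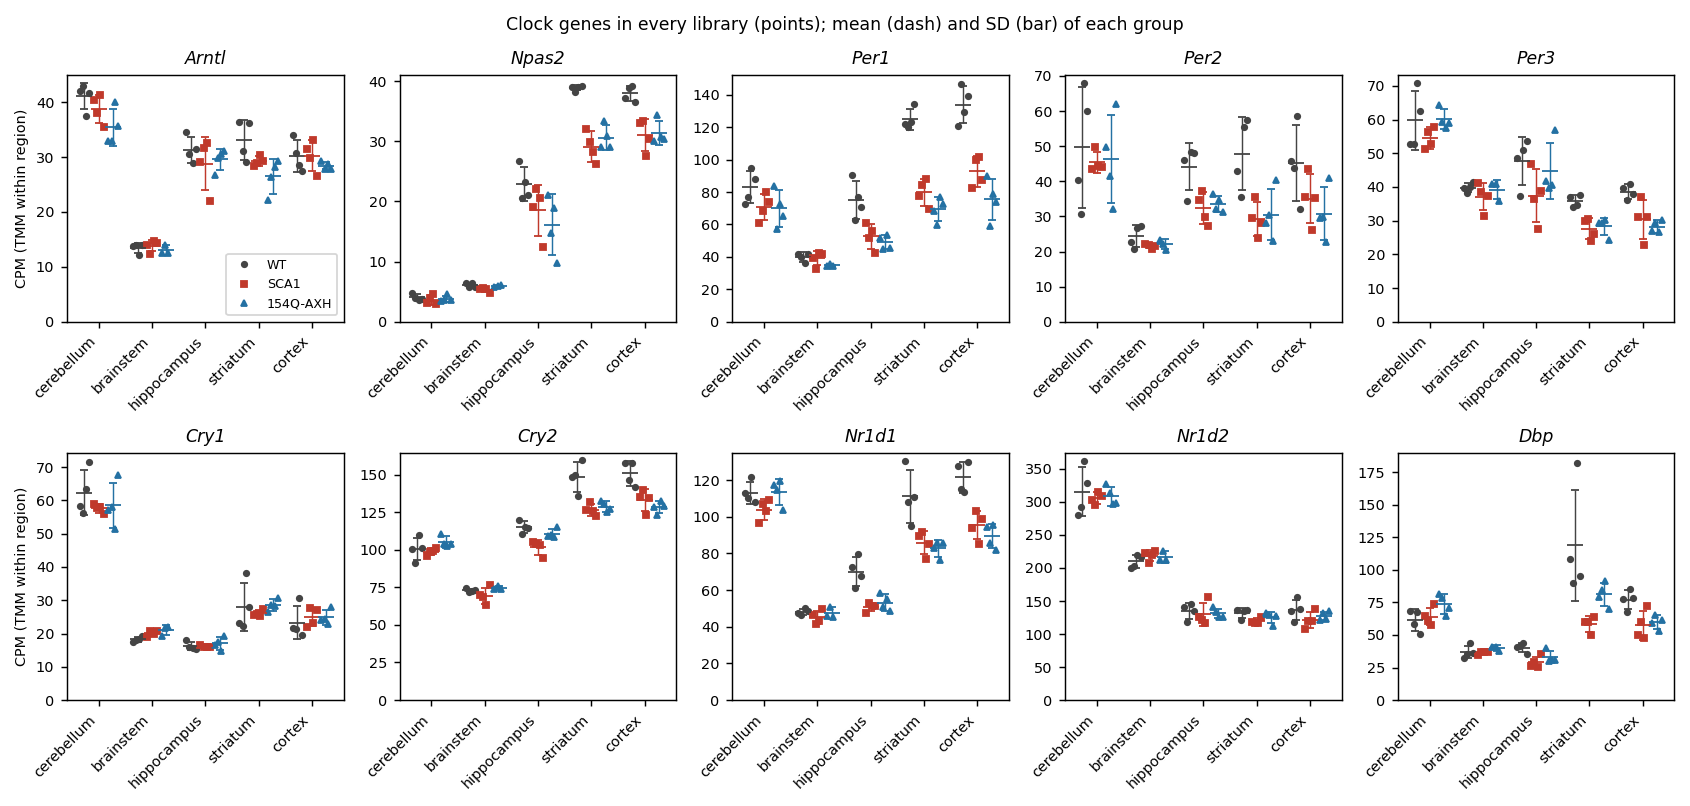
Level of each clock gene in every library, in CPM, with 1 panel per gene, the 5 regions along the horizontal axis, and points for single mice of the 3 genotypes. Per1 in striatum and cortex is the clearest separation, with WT libraries at 120 to 147 CPM and both mutants at 59.2 to 102 CPM, whereas its ranges overlap in the cerebellum, and in the brainstem only the 154Q-AXH libraries lie below WT.

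Among the activators, Npas2 (chr1:39193731-39363236, plus strand, GRCm38, protein coding) changed and Arntl (chr7:113207465-113314126, plus strand) did not pass the test anywhere. In the striatum the WT libraries held 39.1, 38.3, 38.98, and 39.1 CPM of Npas2, the SCA1 libraries 32.1, 29.9, 28.2, and 26.1 CPM, and the 154Q-AXH libraries 29.1, 33.4, 30.9, and 29.1 CPM. The WT values lay within 1 CPM of each other and above every mutant value. The log2 fold change was -0.42 ± 0.072 (SE, adjusted p = 0.00580) in SCA1 and -0.34 ± 0.072 (SE, adjusted p = 0.0361) in 154Q-AXH mice, from 1 edgeR fit of the 3 genotypes in the region with p values adjusted over all 18408 genes tested. In the cortex Npas2 was 37.2, 38.8, 39.2, and 36.5 CPM in WT, 33.1, 33.3, 27.6, and 30.4 CPM in SCA1, and 30.1, 34.4, 30.7, and 30.4 CPM in 154Q-AXH mice, again with no overlap with WT and with log2 fold changes of -0.29 ± 0.065 (SE, adjusted p = 0.0102) and -0.27 ± 0.065 (SE, adjusted p = 0.0187). Without the 3 cortical libraries that stood apart both calls were lost (-0.30, adjusted p = 0.0536 and -0.27, adjusted p = 0.125). No call was made in the hippocampus (-0.30 ± 0.22, SE, adjusted p = 0.448 and -0.50 ± 0.22, SE, adjusted p = 0.305), with SCA1-76 and 154Q-AXH-218 lowest at 12.5 and 9.702 CPM. Arntl in the cortex was 34.02, 30.8, 28.5, and 27.4 CPM in WT and 31.5, 29.7, 33.2, and 26.5 CPM in SCA1 mice, a log2 fold change of 0.0029 ± 0.075 (SE, 95% interval -0.16 to 0.16, adjusted p = 0.988). Its largest difference was in the striatum of 154Q-AXH mice, -0.33 ± 0.10 (SE, adjusted p = 0.140).

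Of the Period genes, which encode the proteins that carry the repressor complex to the nucleus, Per1 (chr11:69095217-69109960, plus strand) was lower in all 3 forebrain regions of both mutants. Striatal WT libraries held 122, 120.3, 123, and 135 CPM of Per1, SCA1 libraries 77.5, 84.1, 88.2, and 69.4 CPM, and 154Q-AXH libraries 68.1, 59.97, 77.2, and 72.5 CPM. No mutant library reached the WT range, and the log2 fold changes were -0.65 ± 0.089 (SE, adjusted p = 0.00160) and -0.85 ± 0.090 (SE, adjusted p = 0.000712). On the linear scale Per1 fell by 36.1% in SCA1 mice and fell by 44.4% in 154Q-AXH mice. In the cortex there were 121, 147, 129, and 139 CPM in WT, 82.4, 99.9, 102, and 87.1 CPM in SCA1, and 89.8, 59.2, 78.8, and 73.95 CPM in 154Q-AXH mice. Here too the groups did not overlap with WT, at -0.53 ± 0.10 (SE, adjusted p = 0.00419) and -0.83 ± 0.11 (SE, adjusted p = 0.000184). In the hippocampus the values were 90.5, 62.5, 76.7, and 71.004 CPM in WT, 60.8, 51.5, 55.8, and 42.2 CPM in SCA1, and 51.8, 45.1, 53.5, and 45.7 CPM in 154Q-AXH mice, with WT-77 close to the mutants, and the changes were -0.52 ± 0.12 (SE, adjusted p = 0.0291) and -0.62 ± 0.12 (SE, adjusted p = 0.0326).

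Per2 (chr1:91415982-91459324, minus strand) fell in SCA1 mice in the hippocampus (-0.45 ± 0.12, SE, adjusted p = 0.0440) and the striatum (-0.71 ± 0.19, SE, adjusted p = 0.0441). In the striatum WT-220 and WT-221 stood at 55.4 and 57.4 CPM, but WT-77 at 35.6 CPM, next to the highest SCA1 library (35.4 CPM). The WT range of Per2 thus reached that of the SCA1 mice without crossing it. Without SCA1-76, the hippocampal library with brainstem markers, the hippocampal call was lost (-0.39, adjusted p = 0.0760). Per3 (chr4:151003652-151044665, minus strand) fell in the striatum of SCA1 mice, from 36.9, 34.1, 34.7, and 37.6 CPM in WT to 29.9, 30.4, 24.1, and 26.01 CPM (-0.38 ± 0.091, SE, adjusted p = 0.0318), while 154Q-AXH libraries held 29.2, 29.3, 30.3, and 24.3 CPM (-0.34 ± 0.091, SE, adjusted p = 0.102). In the cortex Per3 was lower in SCA1 (-0.34 ± 0.11, SE, adjusted p = 0.0489) and in 154Q-AXH mice (-0.45 ± 0.11, SE, adjusted p = 0.0168). Both cortical calls were lost without the 3 cortical libraries that stood apart (-0.36, adjusted p = 0.145 and -0.44, adjusted p = 0.133).

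The Cryptochrome genes encode the part of the complex that blocks the BMAL1 pair, and they differed from each other. Cry2 (chr2:92403646-92434043, minus strand) had small changes with little spread. Cortical libraries held 158, 146, 158, and 141 CPM in WT, 135, 139.9, 123, and 134 CPM in SCA1, and 129, 123, 133, and 129 CPM in 154Q-AXH mice, -0.18 ± 0.050 (SE, adjusted p = 0.0315) and -0.23 ± 0.051 (SE, adjusted p = 0.0106). Without the 3 cortical libraries that stood apart these became -0.21 (adjusted p = 0.0632) and -0.26 (adjusted p = 0.0489). In the striatum Cry2 was called in SCA1 mice (-0.23 ± 0.058, SE, adjusted p = 0.0384) and not in 154Q-AXH mice (-0.21 ± 0.058, SE, adjusted p = 0.124), and in the hippocampus of SCA1 mice it lay at the threshold (-0.18 ± 0.049, SE, adjusted p = 0.0507). Cry1 (chr10:85131700-85185064, minus strand) was called nowhere, with log2 fold changes from -0.11 to 0.20 over the 10 comparisons with WT. Its brainstem value in 154Q-AXH mice was 0.20 ± 0.059 (SE, 95% interval 0.076 to 0.33, adjusted p = 0.507), from 17.3, 18.1, 18.3, and 19.3 CPM in WT to 19.3, 21.6, and 22.05 CPM, the only member whose mutant libraries all lay above WT in a region, where 4.34% of genes did so.

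Of the REV-ERB genes, which silence Arntl, Nr1d1 (chr11:98767932-98775333, minus strand) fell and Nr1d2 (chr14:18204054-18239127, minus strand) was called nowhere. Nr1d1 in the cortex was 128, 115, 114, and 129.7 CPM in WT, 93.9, 103, 85.4, and 98.7 CPM in SCA1, and 94.3, 85.8, 95.5, and 82.01 CPM in 154Q-AXH mice, without overlap with WT (-0.35 ± 0.068, SE, adjusted p = 0.00385 and -0.44 ± 0.068, SE, adjusted p = 0.00101). The hippocampus (-0.46 ± 0.082, SE, adjusted p = 0.00740 and -0.40 ± 0.082, SE, adjusted p = 0.0379) and the striatum (-0.37 ± 0.090, SE, adjusted p = 0.0330 and -0.43 ± 0.091, SE, adjusted p = 0.0390) gave calls in both mutants as well. Nr1d1 shares 263 bases of its exons (8.55%) with Thra, which lies on the opposite strand and encodes a thyroid hormone receptor. The libraries are not stranded (48.9% to 50.1% of stranded counts on the first strand), and a pair that lay on both genes was left out of the counts used here. When pairs were counted for either strand, the Nr1d1 total was 2.68-fold higher and its log2 fold change shrank to -0.034 (adjusted p = 0.730) and -0.060 (adjusted p = 0.552) in the cortex, -0.17 (adjusted p = 0.175) and -0.13 (adjusted p = 0.474) in the striatum, and -0.16 (adjusted p = 0.236) in the hippocampus of 154Q-AXH mice, while the hippocampal call in SCA1 mice held (-0.28, adjusted p = 0.0171). Thra itself was called in no region, and stood at 0.16 ± 0.062 (SE, adjusted p = 0.123) and 0.17 ± 0.062 (SE, adjusted p = 0.129) in the cortex. The pairs added by that count lay on both genes and can have come from either. Their share from Thra was not tested, so the smaller changes are not those of Nr1d1 alone. The Nr1d1 values reported here thus rest on pairs that did not overlap Thra. Nr1d2 differed from WT by -0.17 at most (cortex of SCA1 mice, adjusted p = 0.189).

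Dbp (chr7:45705088-45710203, plus strand), the output factor that acts on D-boxes, had the largest change of all members with all libraries kept. Striatal libraries held 109, 89.7, 182, and 95.05 CPM in WT, 60.1, 60.2, 49.7, and 63.9 CPM in SCA1, and 78.9, 84.5, 91.4, and 70.2 CPM in 154Q-AXH mice. SCA1 libraries lay below every other library of the region, WT-220 lay far above its group, and 154Q-AXH-217 lay above WT-77, the lowest WT library. The change was -1.02 ± 0.19 (SE, adjusted p = 0.00886) in SCA1 mice and -0.55 ± 0.19 (SE, adjusted p = 0.217) in 154Q-AXH mice. Without WT-220 the SCA1 value was -0.74 (adjusted p = 0.00169), so the rank of Dbp rests on that library. Striatal Per1 in 154Q-AXH mice ran from -0.89 to -0.78 with each library left out in turn. In the cortex Dbp was 77.3, 67.3, 85.6, and 78.5 CPM in WT, 49.6, 59.8, 47.98, and 72.4 CPM in SCA1, and 59.5, 64.99, 52.7, and 61.7 CPM in 154Q-AXH mice. SCA1-76 overlapped with WT there, and the changes were -0.42 ± 0.11 (SE, adjusted p = 0.0239) and -0.37 ± 0.11 (SE, adjusted p = 0.0601). In the hippocampus the SCA1 value was -0.48 ± 0.12 (SE, adjusted p = 0.0330), or -0.59 (adjusted p = 0.00714) without SCA1-76. In the cerebellum the 154Q-AXH libraries held 81.2, 78.1, 64.3, and 70.6 CPM against 68.1, 58.1, 67.7, and 50.6 CPM in WT, 0.27 ± 0.10 (SE, adjusted p = 0.204). Dbp shares 539 bases of its exons (18.01%) with Sphk2 on the opposite strand, and its SCA1 calls held with pairs counted for either strand.

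Counts of members were read against those of all genes. In SCA1 mice 4 of 10 members were called lower in the hippocampus, where 3.39% of all genes tested were, 7 of 10 in the striatum against 3.77%, and 6 of 10 in the cortex against 6.71%. In 154Q-AXH mice the counts were 2 in the hippocampus against 0.671%, 3 in the striatum against 1.08%, and 5 in the cortex against 4.76%. No member was called in the cerebellum, where 5.22% and 2.21% of genes were called in the 2 mutants, or in the brainstem, where 0.538% and 0.0138% were. At an unadjusted p under 0.05, 1 and 3 members passed in the cerebellum of SCA1 and 154Q-AXH mice (18% and 15.1% of all genes) and 3 and 2 in the brainstem (10.9% and 6.73%). The median log2 fold change of the members in SCA1 mice was -0.33 in hippocampus, -0.37 in striatum, and -0.31 in cortex, beside 0.017, -0.010, and 0.0093 over all genes, and -0.12 and -0.051 in cerebellum and brainstem. In 154Q-AXH mice it was -0.19, -0.34, and -0.32 in the forebrain regions and -0.058 and -0.018 in the hindbrain regions, beside medians over all genes within 0.0072 of 0. Both comparisons share the WT libraries. All libraries of a group lay below WT for 4, 7, and 4 members in hippocampus, striatum, and cortex of SCA1 mice (all genes 7.26%, 8.94%, and 8.01%) and for 2, 5, and 6 members in 154Q-AXH mice (5.79%, 3.86%, and 8.15%). In the brainstem 1 member did so in each mutant, Npas2 in SCA1 (all genes 3.22%) and Per1 in 154Q-AXH mice (4.3%), while none lay wholly above WT in SCA1 mice (2.88% of all genes), and in the cerebellum no member was free of overlap with WT.

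**Figure D2:**
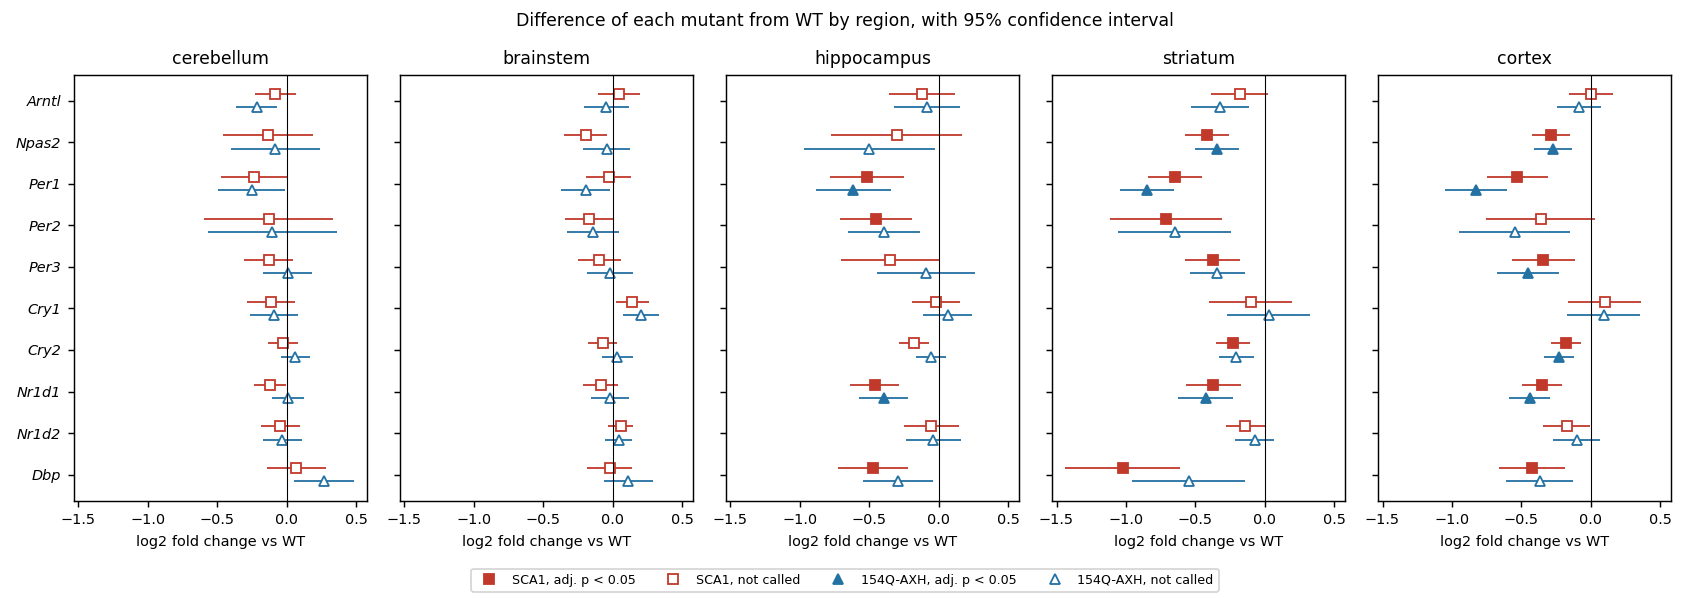
Log2 fold change of each clock gene against WT in the 5 regions, SCA1 and 154Q-AXH mice side by side, with 95% intervals from the edgeR fit and filled points where the adjusted p was under 0.05. All filled points lie below 0 and in the hippocampus, striatum, or cortex, and Arntl, Nr1d2, and Cry1 have none.

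With the libraries that stood apart left out, the count stayed at 2 in the hippocampus of 154Q-AXH mice and fell to 3 of 10 (Nr1d1, Per1, and Dbp) in the cortex of SCA1 mice and to 3 (Nr1d1, Per1, and Cry2) in that of 154Q-AXH mice, and without SCA1-76 hippocampal SCA1 calls remained for Nr1d1, Per1, and Dbp. Without the striatal libraries of WT-220 and 154Q-AXH-217, 7 members were called in SCA1 and 5 in 154Q-AXH mice. Markers of regions and cell types also differed. The 5 striatal markers summed to 747 to 2418 CPM in striatal WT libraries, 359 to 575 CPM in SCA1, and 293 to 1657 CPM in 154Q-AXH libraries, with none of the 5 genes called. The 5 cortical markers in the cortex summed to 505 to 614 CPM in WT, 359 to 434 CPM in SCA1 (2 called lower and 1 higher), and 356 to 429.7 CPM in 154Q-AXH mice (3 lower). The 5 hippocampal markers in the hippocampus summed to 357 to 452, 224 to 304, and 301 to 425 CPM (1 lower in each mutant). Astrocyte markers in the cortex summed to 1148 to 1269, 921 to 1058, and 928 to 1140.1 CPM, with 4 of 5 lower in SCA1 mice. Of the oligodendrocyte, microglial, and choroid plexus lists no gene was called in any region, and of the endothelial list 1 was, in the striatum of SCA1 mice. The part of these differences in the clock gene results was not tested, and in bulk tissue fewer cells of a type and less RNA per cell cannot be told apart.

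The 2 mutants were then compared directly. They differ in the substitutions that disrupt CIC binding, but also in number series, lower in all SCA1 and higher in all 154Q-AXH mice. Substitutions and series cannot be told apart in this comparison. No member was called in any region, and over all genes 0.0335% were called in the cerebellum and 0% in the other regions. At an unadjusted p under 0.05, 1 member passed in the cerebellum (7.6% of all genes), 1 in the hippocampus (11%), 1 in the cortex (6.67%), 2 in the striatum (3.26%), and 0 in the brainstem (5.35%). The difference of 154Q-AXH from SCA1 mice in Per1 was -0.20 ± 0.089 (SE, 95% interval -0.39 to -0.0067, adjusted p = 0.945) in the striatum and -0.30 ± 0.11 (SE, 95% interval -0.52 to -0.074, adjusted p = 0.744) in the cortex. For Dbp it was 0.48 ± 0.19 (SE, 95% interval 0.064 to 0.89, adjusted p = 0.945) in the striatum, where the 154Q-AXH libraries all lay above the SCA1 libraries, as for 2.87% of all genes. For Npas2 the intervals were -0.084 to 0.23 in the striatum and -0.13 to 0.16 in the cortex, and for Nr1d1 -0.25 to 0.14 and -0.24 to 0.054.

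A difference in the phase of the clock between mice would show in all regions of a mouse, so the values of each mouse were followed across its regions. After the mean of each region and genotype was removed, differences between mice of the same genotype were called for Nr1d2 (F = 5.56, adjusted p = 0.00808), Per2 (F = 5.703, adjusted p = 0.00819), and Dbp (F = 5.31, adjusted p = 0.0125), 3 of 10 members against 1.41% of the 24290 genes tested. The mouse carried 47.7% of the remaining variance of Nr1d2, 44.6% of Per2, 42.4% of Dbp, 37.3% of Arntl, 32.7% of Per3, and 28.8% of Cry1, but 19.6% of Per1, 19.4% of Npas2, 10.2% of Nr1d1, and -2.58% of Cry2, where the median of 17540 genes was 5.78%. Arntl (F = 4.01, adjusted p = 0.0595), Cry1 (F = 3.71, adjusted p = 0.0839), and Per3 (F = 3.44, adjusted p = 0.112) did not pass the test. WT-220 stood out. Its Per2 lay above the mean of its group in 5 of 5 regions (0.29 on the log2 scale on average), as did Dbp (0.27) and Nr1d2 (0.12), and its Arntl lay below in 5 of 5 (-0.13). SCA1-76 had the same form, with Dbp (0.20) and Nr1d2 (0.12) above in 5 of 5 regions and Arntl below in 4 of 5 (-0.13), but this rests in part on its hippocampal library with brainstem markers. WT brainstem held less Arntl (13.1 ± 0.830 CPM) and more Nr1d2 (205 ± 8.96 CPM) than WT hippocampus (30.7 ± 2.24 and 132 ± 12.2 CPM). Without the libraries that stood apart, the 3 regions left of SCA1-76 gave 0.12 for Dbp, 0.047 for Nr1d2, and -0.025 for Arntl. WT-77 was low in 5 of 5 regions for Per2 (-0.32), Per3 (-0.15), and Nr1d2 (-0.13), and SCA1-75 was low in 5 of 5 for Per2 (-0.18) and Per3 (-0.26) and high in 5 of 5 for Arntl (0.11). Without the libraries that stood apart 4 members were called, Nr1d2, Per2, and Dbp among them. In fits without the cerebellum, the hippocampus, the striatum, or the cortex, fewer than 3 members were called each time.

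**Figure D3:**
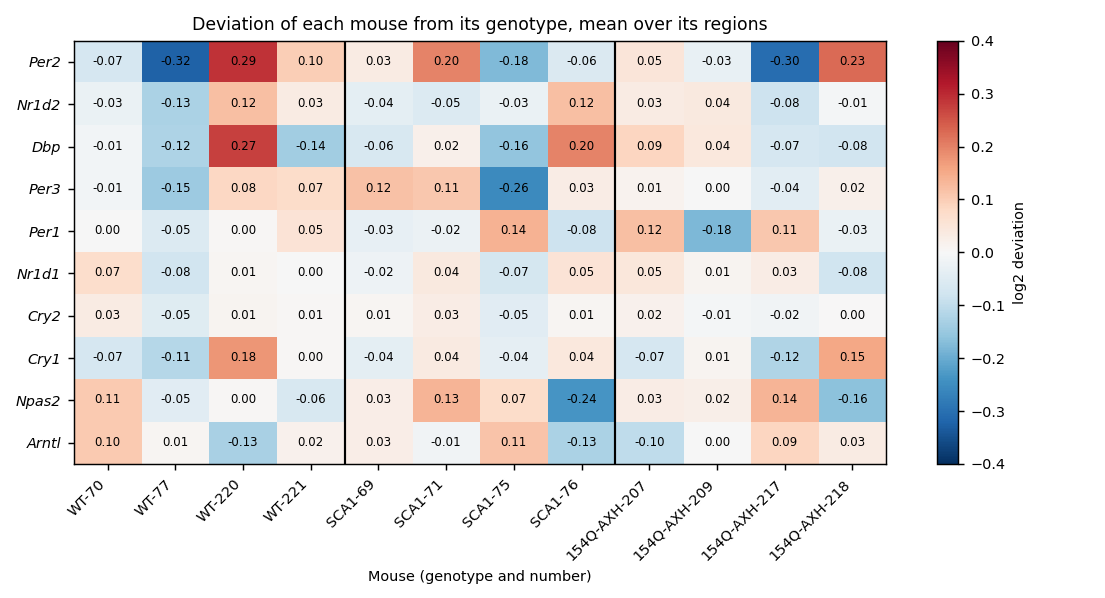
Deviation of each mouse from the mean of its genotype in log2 CPM, averaged over its regions, with genes in rows, mice in columns, red above and blue below the genotype mean, and the value printed in each cell. Per2 has the widest range, from -0.32 (WT-77) to 0.29 (WT-220), and Cry2 the narrowest, from -0.05 to 0.03.

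Over the 59 libraries, with the mean of region and genotype removed, the strongest correlation was that of Per2 with Cry1 (Pearson's r = 0.60), followed by Arntl with Dbp (-0.57), Cry2 with Per3 (0.51), and Arntl with Nr1d2 (-0.48). Dbp and Nr1d2 gave 0.44 and Per2 and Nr1d2 0.40. Cry1 moved with Dbp (0.43) and Nr1d2 (0.37) too, and Arntl with Per1 (0.31), so that these pairs did not follow the opposed sets of genes named above. Without the libraries that stood apart (55 libraries left) r was -0.26 for Arntl and Nr1d2, -0.50 for Arntl and Dbp, 0.58 for Per2 and Nr1d2, and 0.58 for Per2 and Cry1. The libraries of a mouse are not independent, so no p is given. A clock index was computed for each library as the mean log2 CPM of the 6 genes Dbp, Nr1d1, Nr1d2, Per1, Per2, and Per3 minus that of the 3 genes Arntl, Npas2, and Cry1, although Cry1 moved with Per2 here. It was 1.36 ± 0.035 (SD, n = 4) in the striatum of WT mice, 1.04 ± 0.086 in SCA1, and 1.09 ± 0.10 in 154Q-AXH mice. The cortical values were 1.45 ± 0.068, 1.14 ± 0.12, and 1.07 ± 0.060. In the cerebellum the same 3 values were 2.03 ± 0.22, 2.07 ± 0.16, and 2.16 ± 0.18, and for the brainstem they were 2.10 ± 0.073, 2.05 ± 0.063, and 2.03 ± 0.086 (n = 3 for the last). The hippocampal values were 1.46 ± 0.14, 1.23 ± 0.24, and 1.35 ± 0.088. The mutant libraries lay below WT in striatum and cortex, with no overlap, and the ranges overlapped in cerebellum and brainstem. In the hippocampus SCA1-76 (1.56) was the only SCA1 library within the WT range, and without it the SCA1 index was 1.12 ± 0.13 (n = 3), with its highest library (1.25) below the lowest WT library (1.31), while 154Q-AXH mice overlapped with WT. Without the 3 cortical libraries that stood apart the cortical index was 1.42 ± 0.028, 1.10 ± 0.11, and 1.06 ± 0.061 (n = 3 each). Averaged over its regions, a mouse deviated from its genotype by -0.14 (SCA1-75) to 0.15 (SCA1-76). With the libraries that stood apart left out the range was -0.11 (SCA1-75) to 0.12 (WT-220), with SCA1-76 at 0.10.

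**Figure D4:**
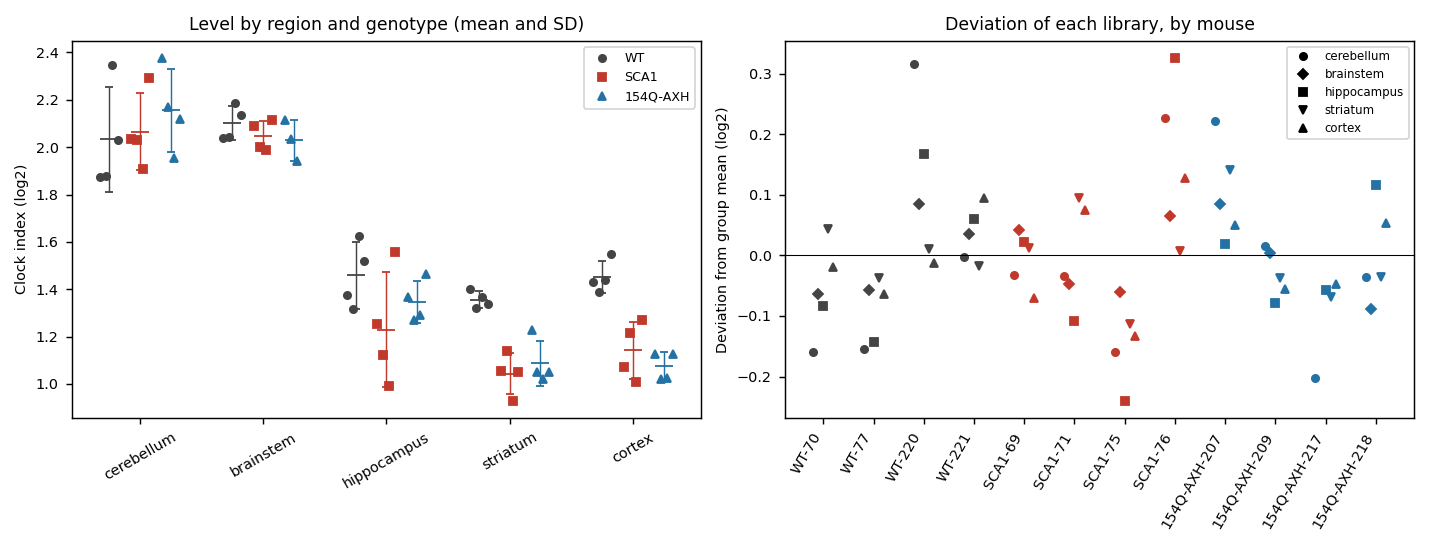
Clock index of each library (mean log2 CPM of 6 genes minus that of 3 genes), by region and genotype with mean and SD on the left, and as the deviation from the mean of region and genotype for each mouse on the right. On the left the mutant libraries lie below the WT libraries in striatum and cortex and overlap with them elsewhere, in the hippocampus of SCA1 mice only through SCA1-76, and on the right the regions of SCA1-75 all lie below 0 and those of SCA1-76 all above.

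The genes most like the index over the same 59 libraries, of 14782 other genes at 1 CPM or more in all regions, were Ciart (r = 0.67), Spag1 (0.65), Dennd1b (0.56), Rnf121 (0.55), and Pxk (0.55), and those most opposed were Icam5 (-0.73), Ctxn1 (-0.67), Lrguk (-0.64), Cx3cl1 (-0.58), and Tusc3 (-0.56). Over the 55 libraries that did not stand apart r ran from 0.39 (Pxk) to 0.60 (Ciart) for the first 5 and from -0.66 (Icam5) to -0.45 (Cx3cl1) for the others. Ciart encodes a repressor of the BMAL1 pair, and the index was built without it. Tef, a relative of Dbp, ranked 8 from the top (0.53).

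A pair of comparisons took the mouse and the region into account. Each mouse has 1 genotype, so a phase shared by all mice of a genotype cannot be told apart from the genotype itself. With the mean over its regions taken for each mouse (5 regions, or 4 for 154Q-AXH-217, which has no brainstem library), so that 1 mouse gave 1 value, 6 members were lower in SCA1 mice against 7.3% of 17540 genes (limma): Npas2, -0.28 ± 0.081 (SE, adjusted p = 0.0397), Nr1d1, -0.28 ± 0.046 (SE, adjusted p = 0.00395), Per1, -0.39 ± 0.072 (SE, adjusted p = 0.00597), Per3, -0.27 ± 0.081 (SE, adjusted p = 0.0462), Cry2, -0.14 ± 0.030 (SE, adjusted p = 0.0125), and Dbp, -0.37 ± 0.10 (SE, adjusted p = 0.0311). In 154Q-AXH mice 2 were lower against 4.79% of genes, Nr1d1, -0.27 ± 0.046 (SE, adjusted p = 0.00766), and Per1, -0.57 ± 0.072 (SE, adjusted p = 0.00347). Without the libraries that stood apart Per3 lost its call (-0.26, adjusted p = 0.0623) and the others held. With each mouse left out in turn, 3 to 5 members were called in SCA1 mice. There Per3 lost its call in 11 of 12 fits, Npas2 in 9, and Dbp in 5, while Nr1d1, Per1, and Cry2 kept theirs in all. Means over the hippocampus, striatum, and cortex alone, regions set apart after the regional calls were known, gave 7 members lower in SCA1 mice against 8.88% of all genes and 5 in 154Q-AXH mice against 5.07%. Over the cerebellum and brainstem none was called in either mutant (all genes 1.38% and 0%), and 0 and 3 passed an unadjusted p under 0.05 (17.3% and 16.3%), with Dbp at 0.029 (adjusted p = 0.888) in SCA1 and Nr1d1 at 0.0056 (adjusted p = 0.972) in 154Q-AXH mice. In the other comparison, the genotype difference itself was tested for a change between regions. The interaction was called for Dbp (F = 5.57, adjusted p = 0.00403, and F = 9.36, adjusted p = 0.000116 with the mouse as a block), Nr1d1 (F = 5.36, adjusted p = 0.00531, and F = 5.82, adjusted p = 0.00447 with the mouse as a block), and Per1 (F = 4.18, adjusted p = 0.0252, and F = 5.35, adjusted p = 0.00786 with the mouse as a block), while for Cry2 the call was lost with the block (F = 3.91, adjusted p = 0.0374, and F = 3.72, adjusted p = 0.0544 with the mouse as a block), which made 4 of 10 members against 4.02% of 24290 genes, and 3 against 4.31% with the block. Without the libraries that stood apart the adjusted p of Cry2 was 0.0584. For Per1 the forebrain differences were larger in size than those in cerebellum and brainstem, where it stood at -0.23 and -0.029 in SCA1 and at -0.25 and -0.20 in 154Q-AXH mice. For Npas2 (adjusted p = 0.756) and Per2 (0.722) no difference between regions was detected.

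**Figure D5:**
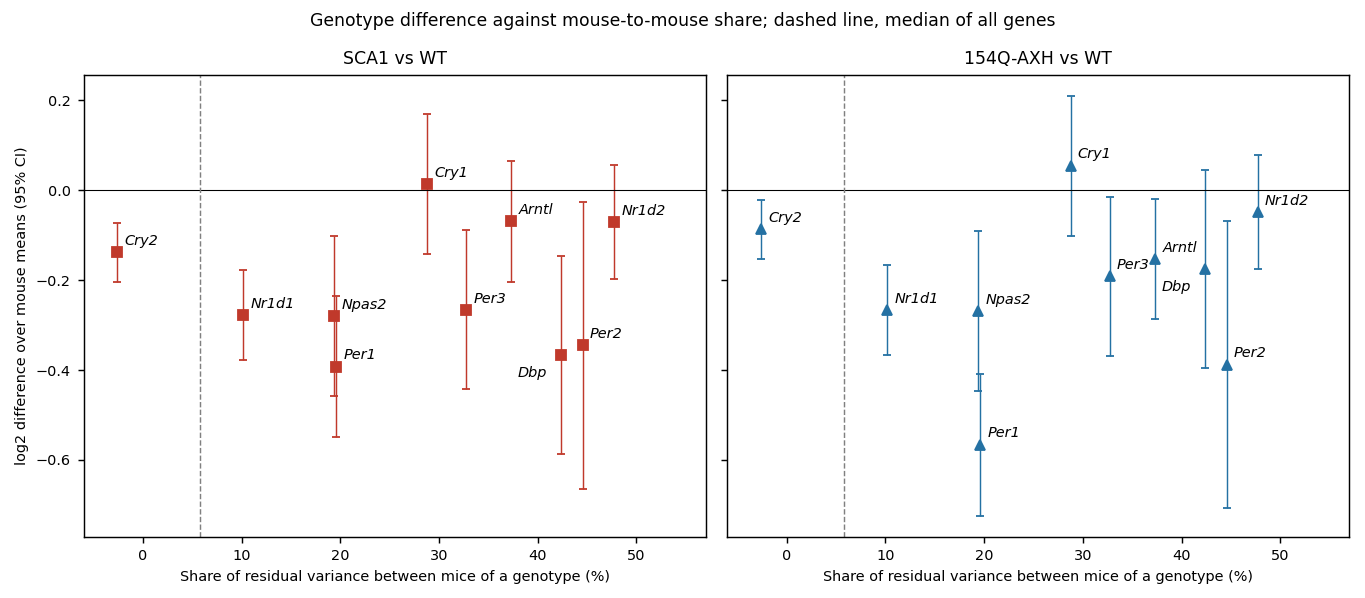
For each clock gene, the share of residual variance between mice of the same genotype (percent, horizontal axis, dashed line at the median of all genes) and the log2 difference from WT over mouse means with its 95% interval (vertical axis), SCA1 mice left and 154Q-AXH mice right. Cry2, Nr1d1, Npas2, and Per1 lie at mouse shares of -2.58% to 19.6% with differences below 0 in both mutants. Among members with higher shares some intervals lie below 0 and some include 0. The intervals are not adjusted for the number of genes tested, and of these members only Per3 and Dbp were called, both in SCA1 mice. The intervals of Per2 (44.6%) and Per3 (32.7%) lie below 0 in both mutants, that of Dbp (42.4%) only in SCA1 and that of Arntl (37.3%) only in 154Q-AXH mice. Those of Nr1d2 (47.7%, the highest share) and Cry1 (28.8%) include 0.

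The genotype differences were also fitted with the clock index of the mouse as a covariate, taken as the mean over its other regions after the mean of each region was removed, so that it holds the genotype differences of those regions too. Per1 remained called in striatum (-0.73, adjusted p = 0.00499 and -0.91, adjusted p = 0.00221) and cortex (-0.55, adjusted p = 0.0219 and -0.84, adjusted p = 0.000709) of both mutants, as did Nr1d1 in the cortex of both, Npas2 in the striatum of SCA1 mice (-0.46, adjusted p = 0.0236), and Cry2 in the cortex of 154Q-AXH mice (-0.22, adjusted p = 0.0368). Dbp was not (-0.80, adjusted p = 0.0848 in the striatum and -0.24, adjusted p = 0.173 in the cortex of SCA1 mice), nor was Per2 (-0.49, adjusted p = 0.319 in the striatum). No member remained called in the hippocampus of either mutant, where Per1 stood at -0.60 (adjusted p = 0.0688) and -0.70 (adjusted p = 0.149) and Nr1d1 at -0.36 (adjusted p = 0.0759) and -0.30 (adjusted p = 0.326), and the striatal Nr1d1 calls were lost too. With the number series of the mice as covariate, Per1 and Nr1d1 remained called in the cortex of both mutants and Per1 in the striatum of both. No hippocampal call remained (Per1 -0.54, adjusted p = 0.0826 and -0.59, adjusted p = 0.136, Nr1d1 -0.39, adjusted p = 0.0526 and -0.47, adjusted p = 0.0625).

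Beyond the 10 members, 12 other clock genes were followed (Clock, Bhlhe40, Bhlhe41, Rora, Rorb, Nfil3, Tef, Hlf, Ciart, Csnk1d, Csnk1e, and Usp2). In SCA1 mice 3 were called lower in the hippocampus, 4 in the striatum, 5 in the cortex, 0 in cerebellum, and 0 in brainstem, and in 154Q-AXH mice 1, 1, 4, 0, and 0, with none higher in either. Over all genes the shares called lower in the 3 forebrain regions were 3.39%, 3.77%, and 6.71% in SCA1 mice. In 154Q-AXH mice they were 0.671%, 1.08%, and 4.76%. In cerebellum and brainstem 5.22% and 0.538% of all genes were called in SCA1 and 2.21% and 0.0138% in 154Q-AXH mice. At an unadjusted p under 0.05 in the edgeR test, 3 and 4 of the 12 passed in the cerebellum of SCA1 and 154Q-AXH mice (18% and 15.1% of all genes) and 2 and 0 in the brainstem (10.9% and 6.73%). Bhlhe40, a repressor that competes for E-boxes and is induced by neuronal activity, fell in the hippocampus from 98.8 to 118 CPM in WT to 52.2 to 59.8 CPM in SCA1 and 55.7 to 60.4 CPM in 154Q-AXH mice (-0.95 ± 0.064, SE, adjusted p = 5.19e-05 and -0.90 ± 0.064, SE, adjusted p = 0.000102). Ciart fell in the striatum from 18.8 to 30.96 CPM to 8.51 to 10.7 and 10.6 to 14.02 CPM (-1.21 ± 0.15, SE, adjusted p = 0.000926 and -0.90 ± 0.15, SE, adjusted p = 0.0130), and it too differed between mice of a genotype (F = 6.82, adjusted p = 0.00152). Tef fell in the cortex of both mutants (-0.37 ± 0.062, SE, adjusted p = 0.00127 and -0.33 ± 0.062, SE, adjusted p = 0.00440), as did Usp2, a deubiquitinase under clock control (-0.30 ± 0.076, SE, adjusted p = 0.0174 and -0.28 ± 0.076, SE, adjusted p = 0.0391), Hlf fell in the cortex of SCA1 mice (-0.32 ± 0.088, SE, adjusted p = 0.0286), and Bhlhe41 in their striatum (-0.69 ± 0.18, SE, adjusted p = 0.0394). Arntl in the cerebellum was not called against WT (-0.083 ± 0.069, SE, adjusted p = 0.594 and -0.22 ± 0.069, SE, adjusted p = 0.137).

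Genes that report the state of a mouse were counted beside the clock genes. Of 10 activity-induced genes (among them Fos, Arc, Egr1, and Npas4), 1 was lower in hippocampus, 4 in striatum, and 1 in cortex of SCA1 mice and 4, 5, and 3 in 154Q-AXH mice, none was higher, and none was called in cerebellum or brainstem, with median log2 fold changes of -0.55, -0.56, and -0.44 in the forebrain of SCA1 and -0.94, -0.74, and -0.55 in that of 154Q-AXH mice. Of 10 glucocorticoid-induced genes (among them Fkbp5, Sgk1, and Tsc22d3) 3, 1, and 2 were lower in the 3 forebrain regions of SCA1 mice and 1, 1, and 1 in 154Q-AXH mice, with 1 lower in the cerebellum of the latter. Of 10 temperature-responsive genes (heat shock genes, Cirbp, and Rbm3) 3 were lower in the hippocampus, 1 lower and 2 higher in the striatum, 1 lower and 2 higher in the cortex, and 2 lower and 1 higher in the cerebellum of SCA1 mice, and in 154Q-AXH mice 1 was lower in the hippocampus, 0 were called in the striatum, 1 was lower and 2 higher in the cortex, and 1 was lower in the cerebellum. Over all genes, 3.39%, 3.77%, 6.71%, and 3.12% were called lower in hippocampus, striatum, cortex, and cerebellum of SCA1 mice. In 154Q-AXH mice these shares were 0.671%, 1.08%, 4.76%, and 1.13%. Called higher were 1.92% in the striatum, 4.4% in the cortex, and 2.1% in the cerebellum of SCA1 mice. In the cortex of 154Q-AXH mice 2.39% were. The part of the listed genes in the clock gene differences was not tested.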

How the data were processed

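RNA was measured in 59 libraries, 1 per mouse and region, and groups were taken from the labels. Per the labels, Trimmomatic 0.36, STAR 2.7.2d, GRCm38, and GENCODE M18 were used by the authors for trimming, alignment, and annotation, and they deposited whole counts of read pairs per gene without normalization. The column of counts without regard to strand was used, in which a pair on overlapping genes is left out (4.36% to 5.33% of pairs). Pairs on no gene (3.73% to 9.904%), without alignment (4.72% to 6.88%), or with several alignments (3.88% to 5.51%) and 1 line that is no mouse gene (at most 53 pairs) entered no total. Symbols came from the reference annotation, which matched 54079 of 54232 genes.

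The members and all gene lists were chosen with earlier results of these data known. Per region, edgeR 4.0.16 in R 4.3.3 (filterByExpr, TMM, quasi-likelihood F test, Benjamini-Hochberg adjustment over all genes tested, called under 0.05) was fitted to the 3 genotypes. Mouse means (log2 CPM, prior count 2) were tested with limma 3.58.1. Differences between mice of a genotype (9 terms, dispersions estimated first), the interaction (8 terms), and WT regions were edgeR fits of all libraries concerned. All 10 members are named, other clock genes where called (2 of that list are not reported here), other lists by counts. Libraries of a mouse share its number and its animal, so the mouse pairs them across regions; within a region each mouse gives 1 library and genotypes share no mice. On simulated counts the SCA1 fit in the cortex recovered 70.7% of genes changed 1.5-fold and 90% of those changed 2-fold. Alternatives included DESeq2 1.42.0, other scalings and filters, number series, clock index, either-strand counts, and each library left out.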

Additional observations from a re-analysis of the deposited data

Results flagged for a closer look

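The genotype difference of 4 members changed between regions by the interaction test, with F = 5.36 (adjusted p = 0.00531) for Nr1d1, F = 4.18 (0.0252) for Per1, F = 3.91 (0.0374) for Cry2, and F = 5.57 (0.00403) for Dbp. In 8 of 140 sets of 4 libraries (1 gene, region, and genotype) 1 library lay far from the other 3, where chance alone gives about 1 in 20. In WT mice these were Arntl in the brainstem of WT-220 (12.2 CPM, others 13.7 to 13.96 CPM) and Nr1d2 in the striatum of WT-77 (122 CPM, others 134 to 136 CPM). In SCA1 mice they were Per2 in the cerebellum of SCA1-71 (49.8 CPM, others 43.6 to 44.3 CPM) and Dbp in the brainstem of SCA1-69 (34.9 CPM, others 36.6 to 36.9 CPM). In 154Q-AXH mice they were Npas2 in the cerebellum of 154Q-AXH-217 (4.6004 CPM, others 3.45 to 3.61 CPM) and the cortex of 154Q-AXH-209 (34.4 CPM, others 30.1 to 30.7 CPM), Per3 in the hippocampus of 154Q-AXH-218 (57.004 CPM, others 39.6 to 41.8 CPM), and Dbp in the hippocampus of 154Q-AXH-207 (39.8 CPM, others 30.1 to 30.8 CPM).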

How the results depend on the processing

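Of 431 alternative values for called members, 317 kept their direction and their call, 112 kept their direction and lost the call, and 2 turned, both over the means of cerebellum and brainstem alone (Dbp in SCA1 mice, 0.029, and Nr1d1 in 154Q-AXH mice, 0.0056). These totals include F tests of WT regions, mice, and the interaction, which have no direction and were counted as keeping it. Each alternative F test of WT regions kept its call, in a test that 91.6% of all genes passed. The totals thus do not describe the genotype comparisons alone. Counts of members called moved as follows, with the count as reported first. In the hippocampus of SCA1 mice (4), 2 were called with only the 2 genotypes compared in the fit and 0 with the number series or the clock index as a covariate or against the WT mice of the same series. In that of 154Q-AXH mice (2), 0 were called with either covariate and 1 with pairs counted on either strand. In the striatum of SCA1 mice (7), 4 were called without a filter, 2 with either covariate, and 4 against WT of the same series. In that of 154Q-AXH mice (3), 6 were called by DESeq2, 1 with only the 2 genotypes, 1 with either covariate, 0 against WT of the same series, and 5 without the libraries high in striatal markers. In the cortex of SCA1 mice (6), 2 were called with either covariate, 1 against WT of the same series, and 3 without the libraries that stood apart. In that of 154Q-AXH mice (5), 2 were called with the series, 3 with the clock index, 3 without the pair whose names disagree, and 3 without the libraries that stood apart. In the cerebellum of 154Q-AXH mice (0), 1 was called against WT of the same series. Over mouse means, SCA1 mice (6) gave 2 without a filter, 2 with the series, and 0 in the hindbrain, and 154Q-AXH mice (2) gave 5 in the forebrain, 0 in the hindbrain, and 7 from single libraries with the correlation of a mouse (0.065) modelled. Differences between mice (3) gave 1 each without cerebellum, hippocampus, striatum, or cortex. The sets chosen after seeing the data were the index, deviations, and correlations without the libraries that stood apart, the forebrain and hindbrain means, the regional fits without the libraries that stood apart, the striatal fit without 2 libraries, and a fit of the mouse differences with the quasi-dispersion alone (4 called). The cause of these changes was not tested, though fits against WT of the same series hold only 2 WT mice.

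With each library left out in turn, the counts ran from 1 to 5 in the hippocampus, 3 to 7 in the striatum, and 3 to 6 in the cortex of SCA1 mice and from 0 to 3, 1 to 5, and 3 to 6 in 154Q-AXH mice, and over mouse means from 3 to 5 and from 2 to 3. They were 0 throughout in cerebellum and brainstem and between the mutants, and 10 for WT regions. In the hippocampus 1 SCA1 call was left without WT-70 or WT-220 and 2 without WT-221, SCA1-69, SCA1-71, SCA1-75, or 154Q-AXH-217. In the striatum 3 were left without WT-70, WT-221, SCA1-75, or SCA1-76 and 4 without WT-77, SCA1-69, SCA1-71, or 154Q-AXH-209, and for 154Q-AXH mice 1 was left without WT-70, WT-77, WT-221, SCA1-71, or any 154Q-AXH library and 5 were called without WT-220. In the cortex 3 SCA1 calls were left without WT-220, SCA1-69, or SCA1-75, and 3 154Q-AXH calls without WT-220 or 154Q-AXH-207. In the hippocampus no 154Q-AXH call was left without WT-70, WT-220, WT-221, 154Q-AXH-209, 154Q-AXH-217, or 154Q-AXH-218 and 1 without SCA1-71, SCA1-75, or 154Q-AXH-207, and over mouse means 3 SCA1 calls were left without WT-70, WT-220, SCA1-69, or SCA1-75. Regional genotype calls that held in every such fit were Per1 in striatum and cortex of both mutants, Nr1d1 in the cortex of both and in the hippocampus of SCA1 mice, Npas2 in striatum and cortex and Dbp in the striatum of SCA1 mice, and Cry2 in the cortex of 154Q-AXH mice. The interaction and the differences between mice were not refitted without single libraries.

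With the mouse as a replicate block, 3 members had an interaction call in place of 4 (Cry2 adjusted p = 0.0544), and 10 differed between WT regions as without it. With 4 mice a group, changes under 1.5-fold could often be missed, and a member that was not called is not shown to be unchanged.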
